A study of Mus musculus with 18 samples.

Results

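The 4 B16F10 tumors injected with PBS alone, of the 18 tumors of the series, were compared by the number of injections: 2 tumors that received 2 doses of PBS against 2 tumors that received 1 dose. The labels alone put each tumor in its group. B16F10 is a mouse melanoma cell line that grows in C57BL/6 mice, the strain of every animal here, and the cells had been placed under the skin of the right flank. In the whole series, groups of 2 tumors received intratumoral (IT) injections of PBS, of unloaded extracellular vesicles (EVs), of the STING agonist CDN2 (named so in the treatment protocol and taken to be the CL656 of the sample titles) or of exoCDN2, the same agonist loaded into EVs. The labels give CDN2 amounts of 20 µg at 1 or 2 doses and of 100 µg at 1 dose. For 2 further CDN2 tumors and for the exoCDN2 tumors they give no amount. Whole tumors were lysed 24 h after the last injection and their mRNA was sequenced. The 2-dose tumors were injected again 3 days after the first dose, so they were also 3 days further on when they were taken. The number of injections, the age of the tumor and the day of collection therefore cannot be told apart in this comparison. The 2 tumors given 1 dose of unloaded EVs, taken at the same number of doses as the 1-dose PBS tumors, were used as a further control group. The labels do not say whether the 2 tumors of a group came from separate cages or days. The p-values therefore cover only the spread between tumors of a group. That spread was estimated over 16 tumors in 8 groups, those given agonist included, and not from the PBS tumors alone.

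Interferons are secreted proteins that bind receptors on most cells and switch on a shared set of genes through dedicated transcription factors. Type I interferons, made by many cells after nucleic acid sensing, induce antiviral genes such as Isg15 and the Ifit family. Interferon gamma, made mostly by T cells and NK cells, induces guanylate-binding proteins, immunity-related GTPases, the chemokine Cxcl9 and the MHC class I antigen presentation machinery. B16F10 is known as a poorly immunogenic tumor with little MHC class I at rest.

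Depth was alike, with 43549581 and 48388504 expected counts in the 1-dose PBS tumors and 45635359 and 45497629 in the 2-dose tumors. The melanocyte genes that mark B16F10 were high in all 4 tumors: Dct, an enzyme of pigment synthesis, lay at 6791 and 6457 CPM (counts relative to the TMM-scaled library size) after 1 dose and at 7199 and 7745 CPM after 2 doses. The 2-dose pair was less uniform than the 1-dose pair: 10.6% of the genes were over 2-fold apart within it, against 3.85% within the 1-dose pair. Part of that spread followed base composition. Genes were divided into 5 equal bins by GC content. In the bin with the lowest GC content the first 2-dose tumor was higher than the second by a median of 0.57 on the log2 scale, and in the bin with the highest GC content the value was -0.32. Within the 1-dose pair the same medians were 0.01 and -0.01, and between the groups they were -0.02 and 0.01. The mitochondrial genome took 2.97% and 2.86% of the counts after 1 dose and 3.76% and 3.88% after 2 doses.

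**Figure D1:**
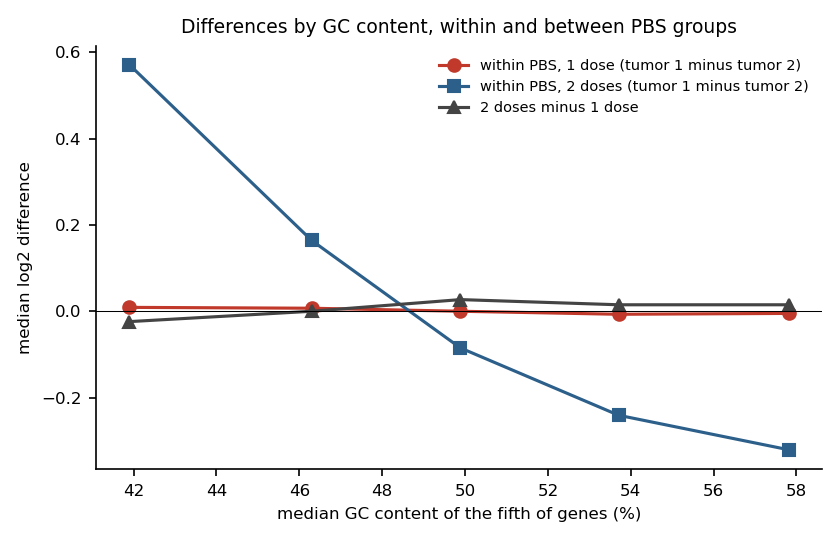
Median log2 difference (vertical axis) of the genes in each of 5 bins of GC content (horizontal axis, median GC in percent), for tumor 1 minus tumor 2 within each PBS pair and for 2 doses minus 1 dose. The line of the 2-dose pair falls from 0.57 to -0.32, while the line of the 1-dose pair and the line between the groups stay near 0.

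Of 16927 genes tested, 178 were lower after 2 doses of PBS than after 1 dose and 8 were higher, by edgeR's quasi-likelihood test (a ratio over 2 with an adjusted p under 0.05). Below, log2 fold changes are of 2 doses against 1 dose and are given ± their standard error, with the adjusted p of that test. These are 1.05% and 0.0473% of the genes tested. The median log2 fold change of all genes was 0.01, and 3856 genes lay below and 3782 above without overlap of the 2 pairs, nearly equal numbers. By value alone, 8190 genes were below 0 and 8664 above. Counts of these kinds for the lists below are to be read against these numbers. The 178 lower genes had a median log2 fold change of -2.56, and 51 of them were over 10-fold lower (50 without Rptn, which had no counts after 2 doses). In the lists of genes drawn up for this comparison, 59 of them belonged to interferon or MHC class I lists, and 10 to lists of immune cells. None of the 240 tested genes of the stromal, host tissue and tumor cell lists was called in either direction. DESeq2 called 351 genes lower and 38 higher. Leaving out 1 tumor at a time moved the number of calls from 186 to 125 without the first 1-dose tumor, 110 without the second, 374 without the first 2-dose tumor and 85 without the second.

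**Figure D2:**
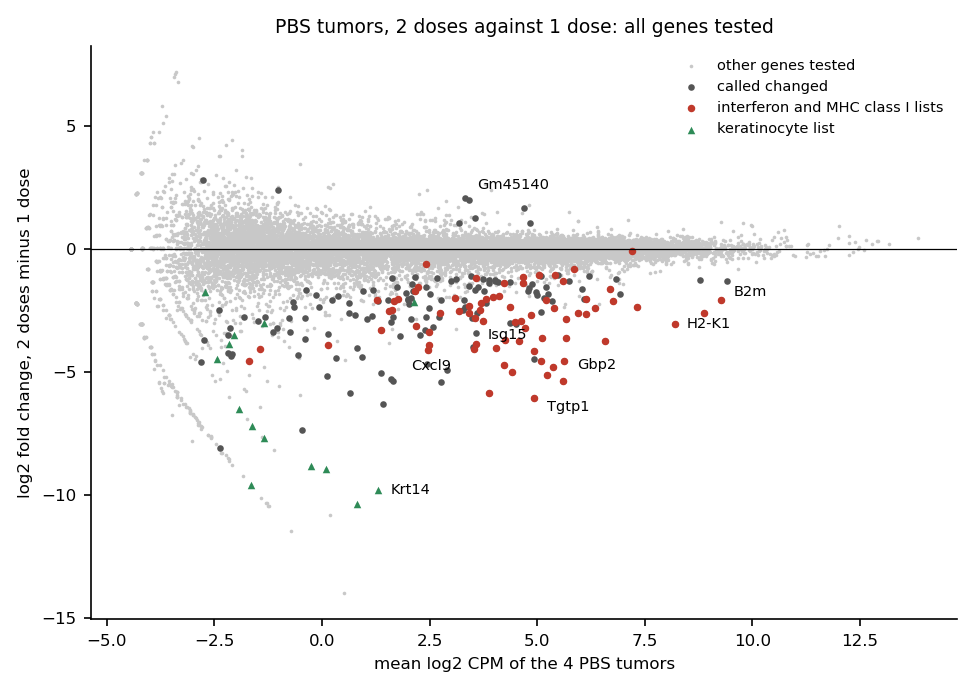
Log2 fold change of 2 doses minus 1 dose of PBS (vertical axis) against the mean log2 CPM of the 4 tumors (horizontal axis), 1 point per gene tested. The interferon and MHC class I lists (red) lie below 0 from low to high expression. The keratinocyte list (green triangles) lies far below 0 at low expression, and the other genes are centred near 0.

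Type I interferon-stimulated genes were lower after 2 doses of PBS. Of 35 genes tested, 27 were called lower against the 1.05% of all genes, and none was called higher. In all 35 both 2-dose tumors lay below both 1-dose tumors, against 3856 of all 16927 genes. Over the 35 genes the log2 fold changes had a median of -2.13. Isg15, a ubiquitin-like protein that is conjugated to other proteins during antiviral responses, lay at 30.8 and 31.7 CPM in the 1-dose tumors and at 4.35 and 4.51 CPM in the 2-dose tumors. The 2 pairs were far apart and each was tight, with a log2 fold change of -2.82 ± 0.25 (edgeR adjusted p = 0.00029). Oasl2, a member of the oligoadenylate synthetase-like family, had the smallest p of all genes, with 37.3 and 36.2 CPM against 5.07 and 4.62 CPM (log2 fold change -2.92 ± 0.20, edgeR adjusted p = 7.6e-05).

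Transcription factors of the interferon response were in the same list. Irf9 lay at 38.6 and 36.9 CPM against 17.9 and 16.6 CPM (log2 fold change -1.13, edgeR adjusted p = 0.00047). Irf7, which drives the later interferon alpha genes, lay at 26.5 and 30.4 CPM against 6.89 and 6.85 CPM. Its log2 fold change was -2.05 (edgeR adjusted p = 0.0019). Usp18, the protease that removes Isg15 from its targets, had a log2 fold change of -2.51 and Rtp4, an interferon-induced chaperone of receptors, one of -2.48.

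Ifit3, which binds foreign RNA together with other Ifit proteins, lay at 67.0 and 69.8 CPM against 11.2 and 6.96 CPM (log2 fold change -2.92, edgeR adjusted p = 0.00056). Rsad2, the antiviral enzyme viperin, lay at 105 and 89.2 CPM against 21.6 and 15.4 CPM (log2 fold change -2.39, edgeR adjusted p = 0.0065). Ifit1 and Mx1, both antiviral effectors, did not pass the test, although neither overlapped. Ifit1 had 28.2 and 27.6 CPM against 7.24 and 4.80 CPM (edgeR adjusted p = 0.064), and Mx1 had 6.73 and 7.32 CPM against 2.39 and 1.04 CPM (edgeR adjusted p = 0.072). The number of type I genes called lower ranged from 19 to 33 over the alternatives, and 19 was the value without the second 2-dose tumor.

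Genes induced by interferon gamma were also lower. Of 23 tested, 19 were called lower, and the list's median log2 fold change was -4.08. The exceptions were Gbp8, Gbp2b and Ubd, whose values lay below 0 without passing the test, and Wars, a tRNA synthetase, at 151 and 155 CPM against 122 and 169 CPM. Wars was the member whose groups overlapped. Cxcl9, a chemokine that attracts activated T cells through Cxcr3, lay at 42.3 and 53.4 CPM after 1 dose and at 3.53 and 2.12 CPM after 2 doses. Its log2 fold change was -4.08 ± 0.42 (edgeR adjusted p = 0.00048). Cxcl10, a ligand of the same receptor, was lower by less, with 72.2 and 76.0 CPM against 13.8 and 9.17 CPM (log2 fold change -2.69, edgeR adjusted p = 0.004).

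The guanylate-binding proteins and immunity-related GTPases, which attack the vacuoles of intracellular microbes, included the largest difference of the list. Not every member exceeded Cxcl9: the log2 fold change was -3.74 for Irgm1 and -3.91 for Gbp5. Gbp2 lay at 218 and 285 CPM against 15.3 and 6.28 CPM (log2 fold change -4.54 ± 0.50, edgeR adjusted p = 0.00062). Tgtp1 lay at 241 and 292 CPM against 5.84 and 2.06 CPM, and its log2 fold change of -6.08 ± 0.76 (edgeR adjusted p = 0.0014) was the lowest of the list. Both 2-dose tumors were low in both genes, and the second was below the first by over 2-fold. Igtp had 203 and 241 CPM against 9.80 and 6.10 CPM, and Irgm1 had 339 and 390 CPM against 38.0 and 16.7 CPM. By families formed after the values were seen, 8 of 11 Gbp genes and 13 of 14 genes of the immunity-related GTPase family were called lower. The 13 include Olfr56, annotated as an olfactory receptor gene, whose span covers other members and whose counts are uncertain. Of all genes tested, 1.05% were called lower. Reads of these close paralogs can be assigned to the wrong copy, so single members are less certain than the family.

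The regulators of this arm were lower too. Irf1, the transcription factor induced first by interferon gamma, lay at 128 and 146 CPM against 19.8 and 18.4 CPM (log2 fold change -2.84 ± 0.31, edgeR adjusted p = 0.00055). Nlrc5, the transactivator of MHC class I genes, lay at 68.7 and 69.7 CPM against 5.90 and 4.62 CPM (log2 fold change -3.72 ± 0.40, edgeR adjusted p = 0.0005). Between 16 and 22 of the 23 genes were called lower over the alternatives.

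Of 15 genes of MHC class I and antigen processing, 13 were called lower. All 15 lay below without overlap, against 3856 of all 16927 genes. The median log2 fold change was -2.61. The 2 genes that did not pass were Erap1, a peptide-trimming aminopeptidase, and H2-Q7, a class Ib molecule, with log2 fold changes of -2.08 and -1.998. H2-K1, a classical class I heavy chain, lay at 805 and 880 CPM after 1 dose and at 101 and 102 CPM after 2 doses, a log2 fold change of -3.05 ± 0.39 (edgeR adjusted p = 0.0018). H2-D1, the other classical heavy chain, lay at 1109 and 1230 CPM against 180 and 203 CPM. B2m, the light chain of every class I molecule, lay at 1205 and 1328 CPM against 334 and 268 CPM (log2 fold change -2.07, edgeR adjusted p = 0.004).

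The machinery that makes and delivers peptides held both the larger and the smaller differences of this list. Tap1, a subunit of the peptide transporter, lay at 173 and 184 CPM against 14.3 and 14.6 CPM (log2 fold change -3.63, edgeR adjusted p = 0.00048). Psmb8, an inducible subunit of the immunoproteasome, lay at 152 and 179 CPM against 7.80 and 6.19 CPM (log2 fold change -4.56 ± 0.62, edgeR adjusted p = 0.0023). Psme1, a subunit of the proteasome activator, had the smallest difference of the list, at 170 and 192 CPM against 56.4 and 61.4 CPM. Without the second 2-dose tumor, 7 of the 15 genes were called lower, with B2m, Psmb8 and Psme1 among those that did not pass. Rsad2 and Cxcl10 of the other lists did not pass without it either.

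None of the genes upstream of these responses passed the test. Among 16 tested interferons, interferon receptors and sensors of the STING pathway, none was called. Ifna4, Ifna2 and Ifnl2 had no counts in any PBS tumor and say nothing of a difference, and the other 13 had a median log2 fold change of -0.07. Ifnar1, a chain of the type I interferon receptor, lay at 86.2 and 85.3 CPM against 83.1 and 86.9 CPM (log2 fold change -0.01 ± 0.15). Ifngr1, a chain of the interferon gamma receptor, lay at 24.1 and 26.8 CPM against 25.8 and 29.2 CPM (log2 fold change 0.11 ± 0.17). Tmem173, which encodes STING, lay at 55.2 and 56.5 CPM against 49.9 and 56.7 CPM, and Cgas, the DNA sensor above it, at 9.11 to 11.3 CPM in the 4 tumors. In Ifnar1, Ifngr1 and Tmem173 the groups overlapped.

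The interferons themselves were near the limit of detection. Ifng lay at 0.95 and 1.56 CPM after 1 dose and at 0.04 and 0 CPM after 2 doses, which is 121 counts against 2. The ratio was 59.5 with an exact 95% interval of 16.1 to 497, which covers counting error only. It did not pass the test across tumors in the main fit (edgeR adjusted p = 0.091), but it passed in 5 of 16 alternatives. Ifng was counted in the cytotoxic and NK cell list and not among the interferons and receptors summarized above. Ifnb1 had 12 counts after 1 dose and 0 after 2 doses, at least a 1.97-fold difference when 3 counts per tumor are taken as the floor.

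**Figure D3:**
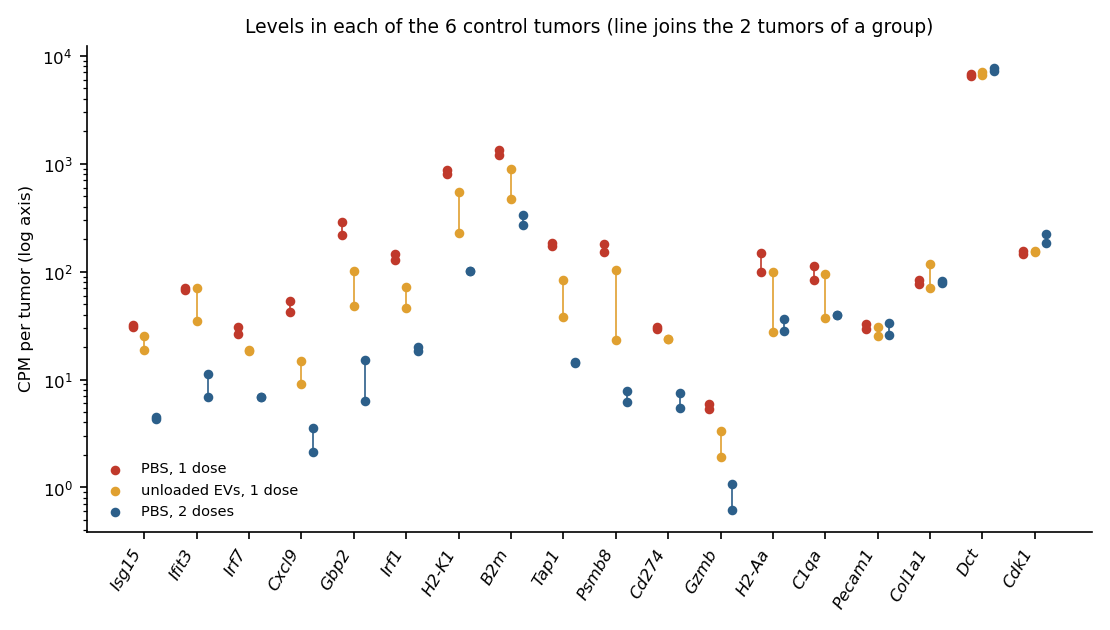
CPM (vertical log axis) of 18 genes (horizontal axis) in each of the 6 control tumors, with a line joining the 2 tumors of a group. From Isg15 to Gzmb both 2-dose PBS tumors lie below both 1-dose PBS tumors, and the PBS groups overlap for Pecam1 and Col1a1.

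The promoters of 5 of these genes are shown because they carry a sequence that interferon-activated transcription factors are known to bind, 2 GAAA elements separated by 2 bases. The sequences are the 250 bases before the transcription start, 5′ to 3′ in the direction of the gene, from RefSeq on GRCm38.p6, and capitals mark every match to GAAANNGAAA on either strand, including overlapping ones. Isg15 (minus strand, chr4:156200819-156201068) had 3 overlapping matches and Gbp3 (plus strand, chr3:142559794-142560043), Ifit3 (plus strand, chr19:34583279-34583528) and Irgm1 (minus strand, chr11:48871421-48871670) had 2 each. B2m (plus strand, chr2:122147437-122147686) had 1.
Isg15: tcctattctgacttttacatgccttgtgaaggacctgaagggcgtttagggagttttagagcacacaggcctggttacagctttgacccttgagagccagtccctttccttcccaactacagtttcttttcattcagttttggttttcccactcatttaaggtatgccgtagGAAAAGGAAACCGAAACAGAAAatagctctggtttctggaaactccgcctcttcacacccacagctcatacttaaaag
Ifit3: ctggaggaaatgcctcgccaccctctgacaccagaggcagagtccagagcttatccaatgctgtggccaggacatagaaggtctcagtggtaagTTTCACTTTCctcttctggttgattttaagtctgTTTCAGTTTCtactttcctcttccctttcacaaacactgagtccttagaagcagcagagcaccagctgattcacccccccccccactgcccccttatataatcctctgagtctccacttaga
Gbp3: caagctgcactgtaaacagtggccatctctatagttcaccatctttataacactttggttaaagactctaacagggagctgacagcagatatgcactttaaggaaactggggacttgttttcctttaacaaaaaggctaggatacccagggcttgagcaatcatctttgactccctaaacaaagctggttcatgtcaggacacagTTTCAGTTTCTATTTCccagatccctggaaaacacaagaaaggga
Irgm1: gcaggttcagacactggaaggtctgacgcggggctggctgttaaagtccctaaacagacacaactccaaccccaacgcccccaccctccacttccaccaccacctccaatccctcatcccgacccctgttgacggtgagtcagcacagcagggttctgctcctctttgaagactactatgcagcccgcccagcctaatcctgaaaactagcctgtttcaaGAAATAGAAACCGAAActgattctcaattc
B2m: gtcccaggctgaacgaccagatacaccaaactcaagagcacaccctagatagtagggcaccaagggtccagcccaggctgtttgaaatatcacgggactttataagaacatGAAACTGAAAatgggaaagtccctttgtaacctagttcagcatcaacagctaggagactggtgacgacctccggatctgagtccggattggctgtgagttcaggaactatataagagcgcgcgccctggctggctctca

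In windows of 300 bases, from 250 before to 50 after the start, the motif was present for 50 of the 128 lower genes that had a promoter in the table, or 39.1%. It was present for 3.99% of all tested genes with a promoter and in 3.44% of all promoters in the table. By list it was found for 14 of 25 type I genes, 12 of 16 interferon gamma genes and 4 of 14 class I genes, and for none of the matched genes of the MHC class II, T cell, melanocyte and cell cycle lists. A match is a description of the sequence and was not tested for binding.

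Many of the lower genes lay close together in the genome. With at most 500 kb between starts, 17 runs of 3 or more lower genes held 73 of the 178. The run with the most genes, on chromosome 11 from 48861968 to 49135387 (GRCm38), held Irgm1, Tgtp1, Tgtp2, Ifi47 and 5 others among 12 genes tested there. Olfr56, an olfactory receptor gene called lower in this run, has an annotated span that covers Tgtp1, Tgtp2 and Ifi47, and its counts are uncertain for that reason. A second, on chromosome 17 from 33915899 to 34216321, held H2-K1, Tap1, Tap2, Tapbp, Psmb8, Psmb9 and H2-DMb1, which are 7 of 27 genes tested there. Of the 178 lower genes, 158 were protein coding and 109 were in no list. Those outside any list included Parp10 and Dtx3l of the ADP-ribosylation and ubiquitin system, Apol9a of the apolipoprotein L family, and Ifi47. They also included processed pseudogenes, whose reads can come from their parent genes, among them Gm8226, Gm4366 and Gm7336. Gm7336 lay at 717 and 666 CPM against 221 and 349 CPM. Apol9a lay at 44.1 and 43.7 CPM against 1.22 and 0.84 CPM (log2 fold change -5.41, edgeR adjusted p = 0.00048).

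Genes of T cells and cytotoxic cells were at low levels and mostly below 0. In RNA from whole tumors, fewer cells of a type and less RNA per cell cannot be told apart. Of 20 T cell genes, 2 were called lower, 19 had values below 0 and 15 did not overlap, with a median of -2.01. Of all 16927 genes, 1.05% were called lower, 8190 had values below 0 and 3856 lay below without overlap. Cd3e, a chain of the T cell receptor complex, lay at 0.97 and 1.52 CPM against 0.10 and 0.13 CPM (log2 fold change -3.38 ± 0.67, edgeR adjusted p = 0.03). The other call was Bcl11b, a T lineage transcription factor, at 0.46 and 0.56 CPM against 0.08 and 0.02 CPM. Cd8a lay at 2.43 and 2.68 CPM against 0.39 and 0.15 CPM and did not pass (edgeR adjusted p = 0.11), and Cd4 lay at 0.88 and 1.36 CPM against 0.60 and 0.44 CPM.

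Of 18 genes of cytotoxic and NK cells, 3 were called lower, with a list median of -2.10. Gzmb, the granule protease, lay at 5.37 and 5.98 CPM against 1.07 and 0.62 CPM (log2 fold change -2.74, edgeR adjusted p = 0.029). Prf1, the pore-forming protein of the same granules, lay at 3.44 and 3.82 CPM against 0.62 and 0.57 CPM. Tbx21, the Th1 transcription factor, lay at 0.42 and 0.78 CPM against 0.08 and 0.09 CPM. Of 14 checkpoint and regulatory genes, Pdcd1 and Cd274 were called. Cd274, the ligand PD-L1, which interferon gamma induces on many cells, lay at 29.2 and 30.7 CPM against 7.49 and 5.50 CPM (log2 fold change -2.20, edgeR adjusted p = 0.038), and Pdcd1, its receptor, lay at 0.86 and 1.74 CPM against 0.17 and 0.11 CPM. Foxp3, the regulatory T cell factor, lay at 0.09 and 0.28 CPM against 0.37 and 0.44 CPM, above in both 2-dose tumors without passing (edgeR adjusted p = 0.71).

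Without the second 1-dose tumor, or without the second 2-dose tumor, none of the T cell, cytotoxic and checkpoint genes was called. With the 4 PBS tumors fitted alone by edgeR, 4, 5 and 1 genes of the 3 lists were called lower, and with DESeq2 on all groups 9, 7 and 4.

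Antigen-presenting cells gave 1 call each in 2 lists. Of 10 MHC class II genes, H2-DMb1, a peptide exchange factor, was called lower at 62.4 and 68.6 CPM against 7.05 and 8.53 CPM (log2 fold change -3.07, edgeR adjusted p = 0.013). All 10 values were below 0, with a median of -2.23. H2-Aa, a class II chain, lay at 99.2 and 147 CPM against 36.5 and 28.1 CPM (edgeR adjusted p = 0.31), and Ciita, the class II transactivator, at 9.72 and 11.6 CPM against 0.80 and 0.71 CPM (edgeR adjusted p = 0.070). Neither overlapped, and neither passed. Of 13 dendritic cell genes, Irf8, a transcription factor of dendritic cells and monocytes that interferon gamma also induces, was called lower, at 51.8 and 65.5 CPM against 7.22 and 7.23 CPM. The median of that list was -0.42. Neither H2-DMb1 nor Irf8 passed without the second 1-dose tumor, without either 2-dose tumor or with the EV tumors pooled with the 1-dose PBS tumors (edgeR adjusted p up to 0.16 and 0.21).

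Of 23 macrophage and monocyte genes none was called, with a median of -0.80 and 21 values below 0. C1qa, a subunit of complement made by macrophages, lay at 84.1 and 113 CPM against 39.8 and 39.9 CPM (log2 fold change -1.31 ± 0.41, edgeR adjusted p = 0.21). Csf1r, the receptor for the macrophage growth factor, lay at 21.1 and 26.7 CPM against 12.2 and 12.5 CPM, and Adgre1, a macrophage surface receptor, at 18.5 and 27.9 CPM against 18.4 and 13.2 CPM. Both 2-dose tumors were below both 1-dose tumors in these 3 genes, in Adgre1 by very little. Of 14 complement genes, C4b, the fourth component, was called lower at 87.5 and 84.2 CPM against 16.1 and 23.4 CPM (log2 fold change -2.12, edgeR adjusted p = 0.014). It no longer passed when any one of the 4 PBS tumors was left out (edgeR adjusted p = 0.069 to 0.091).

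Neutrophil, B cell, mast cell and cytokine lists had no calls. Of 12 neutrophil genes 2 had no counts in any PBS tumor, and the other 10 had a median of -0.17. In the fit of the 4 PBS tumors alone the neutrophil median was -1.15. S100a8, an abundant neutrophil protein, lay at 1.33 and 1.26 CPM against 0.14 and 0.15 CPM (edgeR adjusted p = 0.39). The median was -0.45 for 9 B cell genes, 0.74 for 6 mast cell genes and -0.55 for 28 cytokines and chemokines. Among the last, Ccl2, which attracts monocytes, lay at 12.6 and 11.8 CPM against 7.03 and 6.19 CPM, and Tnf at 1.26 and 1.40 CPM against 0.39 and 0.27 CPM.

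**Figure D4:**
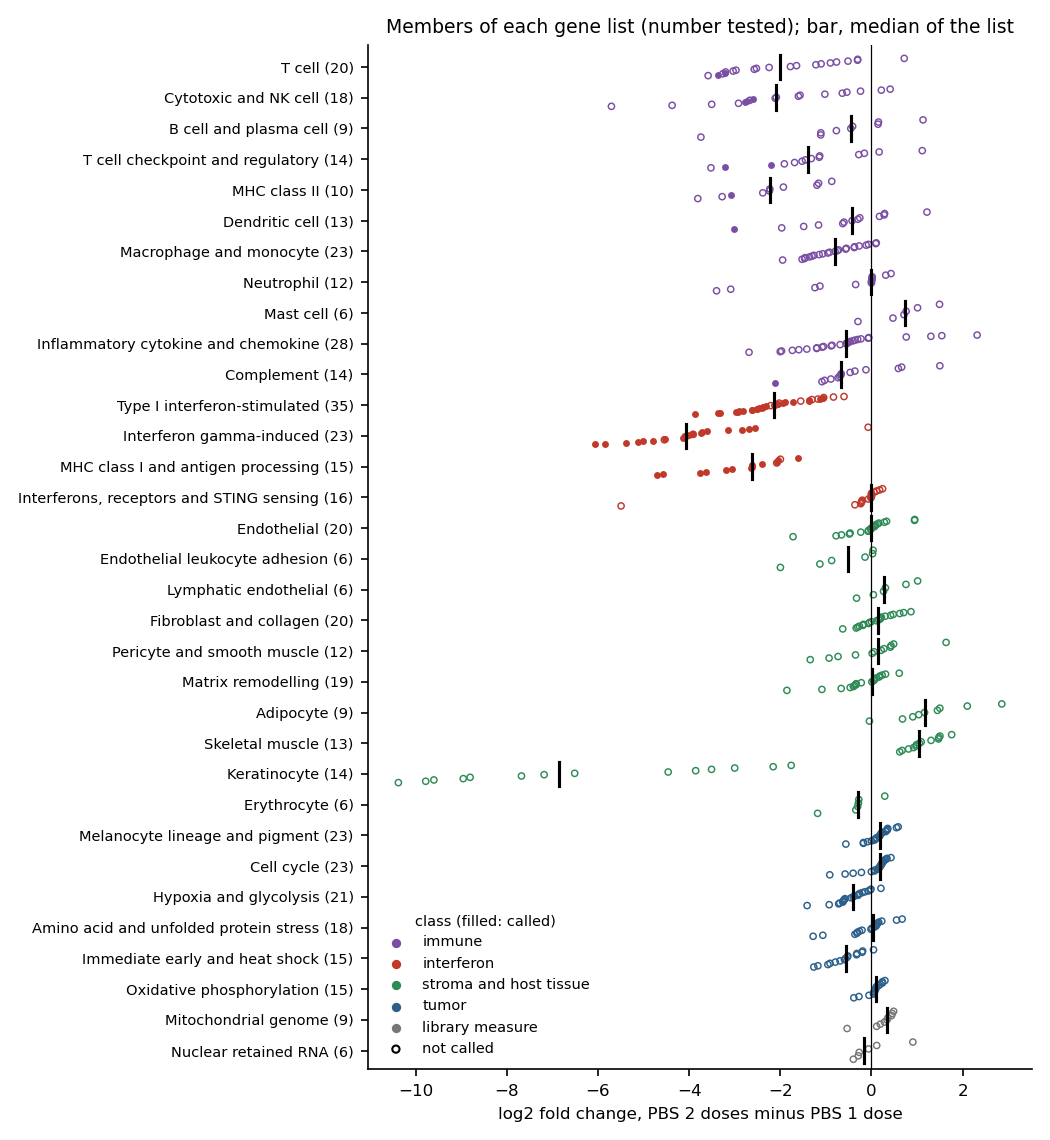
Log2 fold change of 2 doses minus 1 dose of PBS (horizontal axis) for every tested member of the 33 lists (vertical axis, number tested in brackets), coloured by class, filled where called, with a bar at the list's median. Of the 69 filled points, 59 lie in the 3 interferon and MHC class I lists, which have medians of -2.13, -4.08 and -2.61. The others lie in immune lists, and the keratinocyte list has a median of -6.85 with no filled point.

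The stroma of the tumors gave no call in any list. Endothelial genes had a median of 0.00 over 20 genes, and Pecam1, an adhesion molecule of all endothelium, lay at 29.5 and 32.8 CPM against 33.5 and 26.1 CPM (log2 fold change -0.06 ± 0.25). Kdr, the main receptor for VEGF, lay at 17.4 and 17.1 CPM against 17.4 and 17.5 CPM. Fibroblast and collagen genes had a median of 0.14 over 20 genes, with Col1a1 at 76.1 and 83.8 CPM against 81.1 and 78.5 CPM (log2 fold change 0.00 ± 0.38). Col3a1 lay at 108 and 156 CPM against 152 and 173 CPM. The groups overlapped in all 4 genes.

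The other stromal lists had medians of 0.14 for 12 pericyte and smooth muscle genes, 0.01 for 19 matrix remodelling genes and 0.29 for 6 lymphatic genes. Acta2, smooth muscle actin, lay at 20.1 and 19.9 CPM against 12.9 and 11.1 CPM without passing (edgeR adjusted p = 0.59). The 6 genes of leukocyte adhesion on endothelium had a median of -0.51, and Vcam1 among them lay at 11.4 and 14.5 CPM against 3.84 and 2.63 CPM (edgeR adjusted p = 0.16).

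RNA of the skin next to the tumor was unevenly spread over the tumors. The 14 keratinocyte genes, which mark the epidermis over a flank tumor, summed to 208 and 118 CPM in the 1-dose PBS tumors and to 2.81 and 2.32 CPM in the 2-dose tumors. All 14 lay below without overlap, with a median log2 fold change of -6.85, or -5.81 with the gene at 0 after 2 doses set to its bound. None was called in the fit of all groups. Krt14, a keratin of basal keratinocytes, lay at 88.1 and 47.7 CPM against 0.14 and 0 CPM (edgeR adjusted p = 0.22), and Krt5, its partner, at 24.1 and 10.5 CPM against 0.06 and 0 CPM. With the 4 PBS tumors fitted alone, 9 of the 14 were called by edgeR and 13 by DESeq2. Epidermal genes outside the list were among the 178: Rptn, a protein of the cornified layer, had 41 and 33 counts against 0 and 0, Lgals7, a galectin of stratified epithelium, lay at 15.2 and 12.4 CPM against 3.34 and 3.18 CPM, and Klk8, an epidermal protease, had 30 and 34 counts against 1 and 2. These 3 genes were chosen after their values were seen.

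Keratinocyte RNA thus moved with the interferon genes between the PBS groups, and its part in their difference was not tested. In the EV tumors the keratinocyte sum was 102 CPM in the first and 2.62 CPM in the second. The interferon gamma list summed to 774 CPM in the first and 1218 CPM in the second, and the type I list to 1201 and 1104 CPM. For the 2-dose PBS tumors, with keratinocyte sums near that of the second EV tumor, the interferon gamma sums were 302 and 264 CPM and the type I sums 499.7 and 365 CPM.

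Genes of skeletal muscle and fat had values on the other side of 0. All 13 muscle genes had values above 0, with a median of 1.05 and sums of 97.2 and 175 CPM after 1 dose against 240 and 438 CPM after 2 doses. Acta1, skeletal actin, lay at 27.2 and 38.1 CPM against 67.2 and 118 CPM, and Ckm, muscle creatine kinase, at 6.16 and 15.7 CPM against 18.9 and 42.1 CPM. Neither passed (edgeR adjusted p = 0.75 and 0.72). The 9 adipocyte genes had a median of 1.17 with no call, and Adipoq, the fat cell hormone adiponectin, lay at 0.24 and 0.28 CPM against 1.03 and 1.24 CPM. The 6 erythrocyte genes had a median of -0.29.

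**Figure D5:**
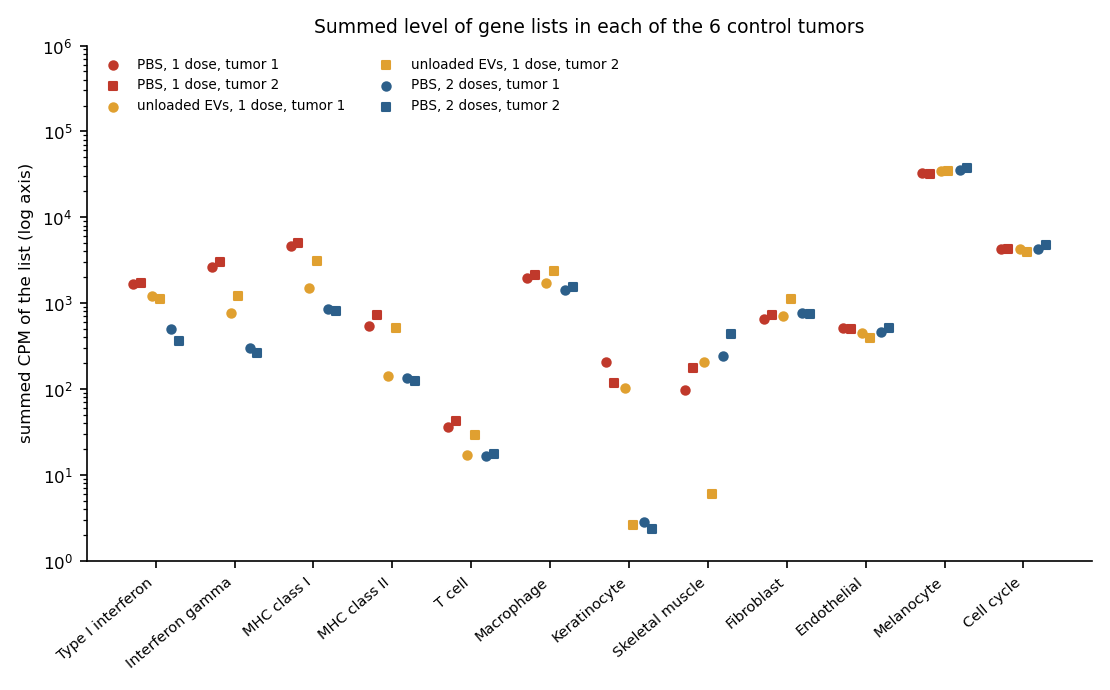
Summed CPM (vertical log axis) of 12 gene lists (horizontal axis) in each of the 6 control tumors, circles for tumor 1 and squares for tumor 2 of a group. The interferon and MHC class I sums are highest in the 1-dose PBS tumors and lowest in the 2-dose PBS tumors, while keratinocyte RNA is near 2 to 3 CPM in the 2-dose PBS tumors and in the second EV tumor.

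Melanocyte genes were close in level between the groups, with more of them above than below. Without overlap, 12 of the 23 lay above and 2 below after 2 doses, against 3782 and 3856 of all 16927 genes. The 23 melanocyte and pigment genes had a median of 0.19 with no call, and summed to 33010 and 32210 CPM against 35760 and 37500 CPM. Pmel, the matrix protein of melanosomes, lay at 4596 and 4408 CPM against 4533 and 5951 CPM, and Tyr, tyrosinase, at 778 and 741 CPM against 1090 and 709 CPM. Mitf, the master regulator of the lineage, lay at 630 and 678 CPM against 515 and 371 CPM and was the lowest of the list (log2 fold change -0.56 ± 0.38, edgeR adjusted p = 0.72). It was the one of these 3 without overlap.

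Cell cycle genes had a median of 0.20 over 23 genes with no call. Without overlap, 10 of them lay above and 3 below. Cdk1, the mitotic kinase, lay at 147 and 156 CPM against 184 and 223 CPM (log2 fold change 0.43, edgeR adjusted p = 0.35). Mki67, the proliferation marker Ki-67, lay at 229 and 196 CPM against 192 and 33.5 CPM, so that the 2-dose tumors differed from each other by more than the groups did. Top2a, a topoisomerase of dividing cells, split the 2-dose pair too, at 551 and 294 CPM against 501 and 484 CPM after 1 dose.

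Of 21 hypoxia and glycolysis genes, 20 had values below 0, with a median of -0.40 and no call. Without overlap, 16 of the 21 lay below and none above. Car9, a carbonic anhydrase induced by hypoxia, lay at 222 and 193 CPM against 69.4 and 86.5 CPM (log2 fold change -1.41 ± 0.35, edgeR adjusted p = 0.093). Ldha, lactate dehydrogenase, lay at 2791 and 2778 CPM against 2106 and 2733 CPM. Immediate early and heat shock genes had a median of -0.57 over 15 genes, with Fos at 24.0 and 25.0 CPM against 15.4 and 15.1 CPM (edgeR adjusted p = 0.30). Among 18 genes of amino acid and unfolded protein stress the median was 0.04, and Ddit3, a stress-induced transcription factor, lay at 45.0 and 46.7 CPM against 23.6 and 20.1 CPM (edgeR adjusted p = 0.12). Neither Car9, Fos nor Ddit3 overlapped. Nuclear genes of oxidative phosphorylation had a median of 0.09, genes of the mitochondrial genome 0.34 and RNAs retained in the nucleus -0.17.

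The 8 genes called higher after 2 doses belonged to no list. Gm45140, a predicted protein-coding gene, lay at 5.26 and 5.42 CPM against 20.1 and 22.3 CPM (log2 fold change 1.99 ± 0.23, edgeR adjusted p = 0.00085). Cmtm5, a membrane protein of the chemokine-like factor family, lay at 6.54 and 6.18 CPM against 11.4 and 14.9 CPM, and Nmrk2, a nicotinamide riboside kinase of muscle, at 0.02 and 0.04 CPM against 0.25 and 0.22 CPM. Gm28036 is a further predicted coding gene, and A830019P07Rik and A230001M10Rik are noncoding RNAs. Gm10123 and Rps16-ps2 are processed pseudogenes, whose reads can come from their parent genes. Leaving out any one PBS tumor left between 2 and 7 higher calls.

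Measured against the 2 tumors given 1 dose of unloaded EVs, the 2-dose PBS tumors had 93 genes lower and 5 higher by edgeR's quasi-likelihood test, 0.549% and 0.0295% of the genes tested. This comparison uses the same 2-dose PBS tumors as the first and is not independent of it. By list, 23 of 35 type I genes, 16 of 23 interferon gamma genes and 7 of 15 class I genes were called lower, with medians of -1.87, -2.56 and -1.42. It rests on the second 2-dose tumor: without that tumor 3 genes were called in all, and without the first 354.

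The 2 EV tumors differed from each other. Gbp2 lay at 47.7 and 102 CPM in them and H2-K1 at 227 and 551 CPM, both between the PBS groups. Both EV tumors fell between the PBS groups for 20 of the 23 interferon gamma genes, 14 of the 15 class I genes and 24 of the 35 type I genes, and for 534 of all 16927 genes. The second EV tumor was the higher of the pair for all 15 class I genes and for 15 of the 35 type I genes, and for 8193 of all 16927 genes, so the type I share was near that of all genes. Ifit3, at 70.1 and 35.0 CPM, and Cxcl10, at 103 and 38.5 CPM, were among those higher in the first, which reached or passed the 1-dose PBS tumors in both.

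The dose difference of PBS was set against that of the tumors given exoCDN2 or CDN2 (20 µg), each with 2 tumors at 1 dose and 2 at 2 doses. The test was of the difference between dose differences. Against exoCDN2, 866 genes had a lower dose difference in PBS and 288 a higher one by edgeR's quasi-likelihood test, 5.12% and 1.7% of the genes tested. With the GC trend removed, an alternative added after seeing the data, the numbers were 775 and 548. Against CDN2 (20 µg) they were 1975 and 873, 11.7% and 5.16%, and 1698 and 2229 with the GC trend removed. Both tests include the 4 PBS tumors, so they are not independent of the first comparison.

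Not all interferon genes showed this difference between dose differences. A lower dose difference in PBS than in exoCDN2 was called for 19 of 35 type I genes and 19 of 23 interferon gamma genes. It was called for all 15 class I genes, against 5.12% of all genes tested. No member was called higher, but Rsad2 and Cxcl10 were among those with values above 0 (0.24 and 0.36). H2-K1, which was lower after 2 doses of PBS, lay at 304 and 443 CPM after 1 dose of exoCDN2 and at 2844 and 1728 CPM after 2 doses (difference of log2 fold changes -5.67 ± 0.55, edgeR adjusted p = 0.00056). Gbp2 lay at 604 and 744 CPM after 1 dose of exoCDN2 and at 963 and 527 CPM after 2 doses (difference -4.68, edgeR adjusted p = 0.0016). Isg15 lay at 308 and 309 CPM and then at 242 and 193 CPM with exoCDN2 (difference -2.31, edgeR adjusted p = 0.0021). With exoCDN2 the groups overlapped for Gbp2 and did not for H2-K1 and Isg15.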

How the data were processed

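The authors sequenced mRNA libraries, filtered the reads by quality, aligned them to GRCm38 (mm10 in the submitters' notes) with OSA in OmicSoft ArraySuite, and obtained expected counts for each gene from RSEM. They deposited these expected counts without normalization for the 18 tumors. The labels gave each tumor's agent and number of doses.

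The expected counts were rounded to whole counts and analysed in R 4.3.3 with edgeR 4.0.16. Genes passed filterByExpr (minimum count 10, minimum total 15), TMM factors scaled the libraries, and 16 tumors entered 1 quasi-likelihood model in 8 groups of 2, with 8 residual degrees of freedom. The 2 tumors given 2 doses of CDN2 of unlabelled amount were left out. The Benjamini-Hochberg adjustment ran over 16927 genes, and a called gene had a ratio over 2 together with an adjusted p under 0.05. CPM used TMM-scaled library sizes. CPM is not per length, so levels were not compared between genes. Symbols and positions came from GENCODE M21 (GRCm38), which matched 50376 of 50600 identifiers, and promoters from RefSeq (GRCm38.p6). Whether counting used the strand was not given in the sources used here, so overlapping and antisense genes are uncertain.

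The tumors compared and the 33 gene lists (525 genes, 510 tested) were chosen with earlier results of these data known. Named genes were key members of the lists, called members, and the called genes with the smallest p-values whose groups did not overlap. Some are not printed. Alternatives were DESeq2 1.42.0, other scalings, no filter, other sets of tumors, no limit on the ratio, a replicate block, a removed GC trend, and each PBS tumor left out in turn.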

Additional observations from a re-analysis of the deposited data

Results flagged for a closer look

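The difference between 2 doses and 1 dose was not the same in the PBS tumors as in the tumors given CDN2, by the interaction term of edgeR's quasi-likelihood test. It differed from that of exoCDN2 for 1154 genes and from that of CDN2 (20 µg) for 2848 genes. Of the 178 genes lower after 2 doses of PBS, 138 had a lower dose difference in PBS than in exoCDN2, and 146 a lower one than in CDN2 (20 µg). These counts share the PBS tumors with the choice of the 178 genes and are not independent of it. The lists were also counted over all their tested members, whether or not among the 178. A lower dose difference in PBS than in exoCDN2 was called for 5.12% of all genes tested. In the lists it was called for 19 of 35 type I interferon-stimulated genes and 19 of 23 interferon gamma genes. For MHC class I and antigen processing it was called for 15 of 15. Against CDN2 (20 µg) the numbers were 23, 20 and 14 of the same lists, and 11.7% of all genes tested. Groups of 2 tumors are too small for a test of single outlying tumors.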

How the results depend on the processing

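The number of genes that differed between 2 doses and 1 dose of PBS was 186, and it was 389 with DESeq2, 766 with no filter on low counts, 285 and 546 with the 4 PBS tumors alone in edgeR and DESeq2, and 85 to 374 when each PBS tumor was left out in turn. Against the EV tumors the 98 genes became 286 with DESeq2, 725 with no filter, and 3 to 354 without 1 PBS tumor. The 1154 genes of the comparison with exoCDN2 became 2045 with no filter and 528 to 1038 without 1 PBS tumor, and the 2848 genes of the comparison with CDN2 (20 µg) became 1330 to 2440. RLE factors, library totals, upper quartile factors and the addition of the 2 tumors of unlabelled amount left these 4 counts within 1.5 times. The 4 PBS tumors alone could not be used for the other 3 comparisons.

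The replicate number was also used as a block. The difference of tumor 1 and tumor 2 across genes had a correlation of 0.039 between the 2 PBS groups. It was 0.116 between the 1-dose PBS and EV groups and 0.0022 on average over 28 pairs of groups. These correlations cannot tell whether same-numbered tumors shared a cage or a day. The block gave 186 genes for PBS (171 shared with the fit without it), 67 against the EV tumors, 1059 against exoCDN2 and 2648 against CDN2 (20 µg).

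Medians of gene lists that moved by more than the spread between tumors were, with the 4 PBS tumors alone in edgeR, -0.79 for B cell and plasma cell, -1.15 for neutrophil, -0.061 for interferons, receptors and STING sensing, -0.89 for endothelial leukocyte adhesion, 0.17 for melanocyte lineage and pigment. They were, with the 4 PBS tumors alone in DESeq2, -0.77 for B cell and plasma cell, -1.14 for neutrophil, -0.041 for interferons, receptors and STING sensing, -0.88 for endothelial leukocyte adhesion, -7.52 for keratinocyte. They were, with the 1-dose PBS and EV tumors pooled, -1.85 for MHC class II, -0.75 for dendritic cell, -1.46 for neutrophil, -1.20 for inflammatory cytokine and chemokine, -3.47 for interferon gamma-induced, -2.14 for MHC class I and antigen processing, 0.15 for endothelial, -0.16 for fibroblast and collagen, -0.26 for matrix remodelling, -0.59 for erythrocyte, 0.15 for melanocyte lineage and pigment, 0.14 for amino acid and unfolded protein stress, 0.22 for mitochondrial genome. They were -7.66 for keratinocyte with the replicate block, 0.22 for melanocyte lineage and pigment with upper quartile factors and, with the GC trend removed (an alternative chosen after seeing the data), 0.28 for melanocyte lineage and pigment, 0.28 for cell cycle, 0.12 for amino acid and unfolded protein stress, 0.53 for mitochondrial genome. Leaving out 1 PBS tumor at a time gave medians from -2.64 to -1.48 for T cell, -2.52 to -1.79 for cytotoxic and NK cell, -0.77 to -0.18 for B cell and plasma cell, -1.81 to -0.94 for T cell checkpoint and regulatory, -0.68 to -0.14 for dendritic cell, -1.38 to 0.00 for neutrophil, 0.13 to 1.64 for mast cell, -0.92 to -0.34 for inflammatory cytokine and chemokine, -2.48 to -2.05 for type I interferon-stimulated, -4.49 to -3.62 for interferon gamma-induced, -0.89 to -0.35 for endothelial leukocyte adhesion, -0.25 to 0.27 for pericyte and smooth muscle, -0.18 to 0.01 for matrix remodelling, 0.76 to 2.12 for adipocyte, -8.75 to -6.05 for keratinocyte, -0.48 to -0.067 for erythrocyte, -0.005 to 0.34 for cell cycle, -0.082 to 0.063 for amino acid and unfolded protein stress, -0.69 to -0.42 for immediate early and heat shock, -0.082 to 0.21 for oxidative phosphorylation. The other 432 of 495 values stayed within that spread. The cause of these shifts was not tested.

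Among the named genes, 23 of 1486 values changed sign, all of them near 0 and none of a called gene. With the GC trend removed the log2 fold change was 0.01 for Wars and Pecam1, 0.062 for Ifnar1, 0.013 for Tmem173 and 0.089 for Col1a1. With the 1-dose PBS and EV tumors pooled it was 0.074 for Wars, 0.035 for Tmem173, 0.011 for Pecam1 and -0.201 for Col3a1. With upper quartile factors it was 0.024 for Ifnar1 and 0.035 for Col1a1, with DESeq2 and with RLE factors 0.008 for Col1a1, and with the 4 PBS tumors alone in edgeR -0.006 for Kdr. Without 1 PBS tumor it ran from -0.322 to 0.141 for Wars, -0.046 to 0.019 for Ifnar1, -0.163 to 0.02 for Tmem173, -0.256 to 0.107 for Pecam1, -0.071 to 0.069 for Col1a1, -0.1 to 0.521 for Tyr and -0.743 to 0.163 for Top2a. In 118 values a called gene no longer passed, and in 78 a gene passed that had not.

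With 2 tumors a group, an exact permutation test cannot go below p = 0.333, so every call rests on a spread shared by all groups. The floor of 3 counts per tumor leaves only a bound for Ifnb1 and other genes without counts after 2 doses. Ratios of keratinocyte and other genes with few counts after 2 doses are imprecise. The 2-dose pair was the less uniform one, and leaving out its second tumor gave the lowest counts for PBS and against the EV tumors, while leaving out the second 1-dose tumor gave the lowest counts against exoCDN2 and CDN2 (20 µg).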
